A study of Mus musculus with 24 samples.

Results

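The comparison described here is TAC against sham at day 4, taken across all genes. Transverse aortic constriction (TAC) is an operation that narrows the aortic arch, so that the left ventricle has to pump against a higher pressure, and sham animals undergo the operation without the narrowing. RNA of mouse left ventricles was sequenced 2, 4, 7 and 21 days after either operation. The 6 libraries of day 4, of 24 in all, were taken by their labels: 3 from TAC hearts and 3 from sham hearts. Of 24015 genes in the count table, 13816 passed the filter on low counts and were tested. The labels give no strain, sex, age or genotype, and no treatment other than the operation. Nor is it stated that replicates came from different animals, so that the p-values may measure only the spread between these samples.

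Under pressure overload the heart muscle cell grows, switches on genes of the fetal heart and turns away from burning fatty acids. At the same time fibroblasts divide and lay down matrix, and macrophages enter the tissue or multiply in it. In the mouse these responses of muscle, matrix and immune cells start side by side in the first days after the operation.

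Levels are counts per 1000000 reads (CPM), scaled by TMM factors. An effect is the log2 of the TAC level over the sham level, followed by ± its standard error (SE), with n = 3 libraries a group. Each adjusted p comes from the quasi-likelihood test of edgeR, corrected by the method of Benjamini and Hochberg for all genes tested. A gene is said to rise or fall where its adjusted p is under 0.05, and values for sham and TAC libraries are given in the order of replicates 1, 2 and 3. Of the 275 genes named in the text that passed, 147 passed in the same direction without each library of day 4 in turn, and for the others the libraries without which they did not pass are named at the end of a paragraph. Counts without each library in turn are given in the order sham 1, 2 and 3 and TAC 1, 2 and 3. Depth was 12.0 to 12.6 M counted reads (M, 1000000 reads) in the sham and 14.5 to 17.6 M in the TAC libraries. Markers of the labelled tissue were high in all libraries: Myh6, the adult heart myosin, stood at 28140 to 57470 CPM, Myl2, the ventricular myosin light chain, at 4400 to 7832 CPM, and Myl7, its atrial counterpart, at 0.203 CPM or less in 5 libraries. Myl7 reached 12.7 CPM in TAC replicate 3. For the 7 tested markers of atrial muscle the median log2 over the sham mean, with 0.5 CPM added, was 0.27, 0.13 and 2.48 in the TAC libraries. Of these markers 1 rose and 1 fell, and what sets TAC replicate 3 apart in them was not tested. Sham replicate 3 stood apart in adipocyte markers, with a summed level of the 10 listed of 188 CPM against 27.1 to 38.8 CPM. Scd1, which makes monounsaturated fatty acids, stood at 19.8, 22.1 and 1292 CPM in the sham and 28.5, 30.7 and 48.9 CPM in the TAC libraries, and Car3, a carbonic anhydrase of adipocytes, at 0.176, 0.244 and 102 CPM in the sham and 0.678, 1.6 and 4.71 CPM in the TAC libraries. Scd1 (-3.62 ± 0.92, adjusted p = 0.00801) and Car3 (-3.82 ± 1.28, adjusted p = 0.0335) were called lower, and in both only sham replicate 3 stood above every TAC library. Without sham replicate 3 the direction turned, with 0.79 (adjusted p = 0.0325) for Scd1 and 3.44 (adjusted p = 0.0914) for Car3. Car3 did not pass without TAC 1, TAC 2 or TAC 3 (largest adjusted p = 0.107).

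At day 4 1995 genes rose, which is 14.4% of those tested, and 1399 fell, which is 10.1%. The rises were larger than the falls. Of the genes that rose, 983 did so at least 2-fold, 376 at least 4-fold and 159 at least 8-fold. Of the genes that fell, 125 did so at least 2-fold and 13 at least 4-fold, and 876 fell by less than 1.5-fold. The median log2 fold change was 0.98 over the genes that rose, -0.51 over those that fell and -0.01 over all tested genes. In 5679 genes, 41.1% of those tested, the 3 TAC libraries lay entirely on one side of the 3 sham libraries. Genes that rose took 7.03% to 7.18% of the reads of a sham library and 14.4%, 11.7% and 17.5% of those of the TAC libraries. Without TAC replicate 3, the library farthest from sham, the test called 1060 genes higher and 342 lower. Without sham replicate 2 it called 799 genes lower and without sham replicate 3 846.

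**Figure D1:**
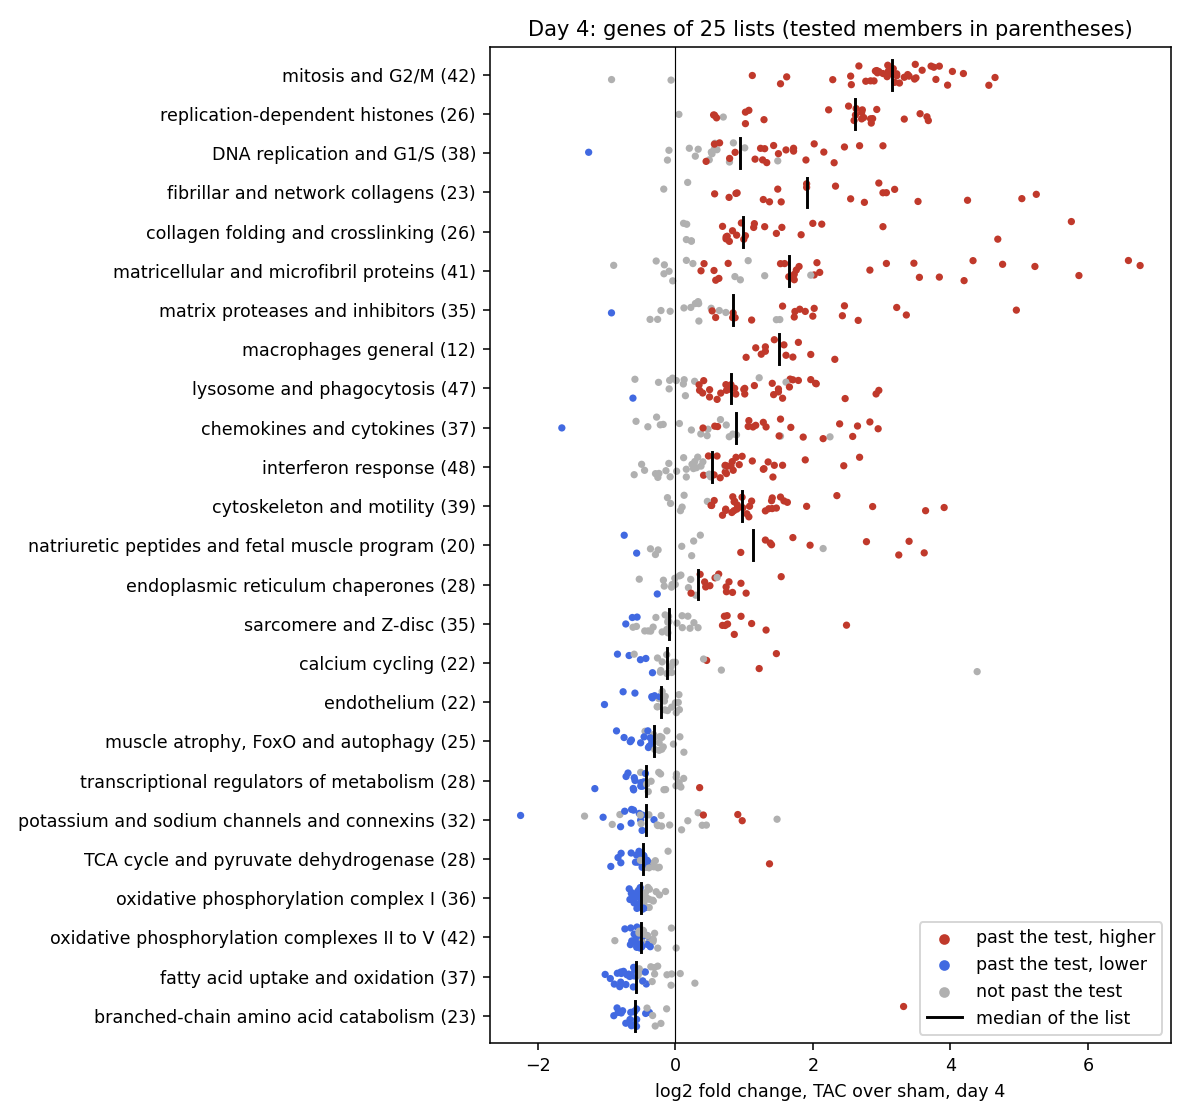
Log2 fold change of TAC over sham at day 4 (x axis) for the tested members of 25 gene lists (rows, number of tested members in parentheses), red where a gene rose, blue where it fell, grey where it did not pass the test, with the list median as a black bar. The medians of the mitosis and histone lists are 3.15 and 2.62, while those of the 5 mitochondrial lists at the foot are -0.47 to -0.59.

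Most of the largest rises among genes above a fixed mean level and without overlap between the groups were of secreted and matrix proteins. Sprr1a, a small proline-rich protein of stressed heart muscle cells and injured neurons, stood at 0.264, 2.6 and 1.45 CPM in the sham and 374, 42.2 and 254 CPM in the TAC libraries (log2 fold change 7.25 ± 1.36, adjusted p = 0.00117). Cthrc1, which activated fibroblasts secrete, stood at 0.264, 0.893 and 0.241 CPM in the sham and 52.6, 22.3 and 80.6 CPM in the TAC libraries (6.76 ± 1.21, adjusted p = 0.000808). In both genes TAC replicate 2 was the lowest TAC library and still far above every sham library. Tnc, Spp1, Col12a1, Ltbp2, Timp1, Postn, Lox, Thbs4, Cilp, Wisp1, Acta1, Top2a and Thbs1 followed in size. Grn, which encodes the lysosomal growth factor progranulin, had the smallest p of all genes at a change of only about 2-fold: 61.6, 57 and 59.1 CPM in the sham and 136, 106 and 113 CPM in the TAC libraries (0.996 ± 0.10, adjusted p = 2.86e-05). The 3 values of each group lay close together, and every TAC library was above every sham library. Clu, clusterin, a secreted chaperone, rose from 381, 474 and 439 to 2461, 1147 and 2315 CPM (2.19 ± 0.41, adjusted p = 0.00116), and Eef1a1, a translation elongation factor, from 953, 1030 and 936 to 1949, 1295 and 1954 CPM (0.83 ± 0.18, adjusted p = 0.00263). Sprr1a had a log2 fold change of 7.98 without sham replicate 2 and 6.66 without TAC replicate 1 (7.25 by the counts of all libraries), Cthrc1 7.64 without sham replicate 2 (6.76 by the counts of all libraries) and Tnc 7.40 without sham replicate 2. Thbs4 had a log2 fold change of 3.65 without TAC replicate 3 (4.33 by the counts of all libraries) and Top2a 2.96 without TAC replicate 3 (3.59 by the counts of all libraries).

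The largest falls were smaller. Kcnv2, a modifier subunit of voltage-gated potassium channels, fell from 12.4, 14.7 and 14.6 to 3.12, 4.59 and 1.28 CPM (-2.25 ± 0.39, adjusted p = 0.000625). Cacna1s, the calcium channel subunit best known from skeletal muscle, went from 21.3, 19.9 and 18.7 to 6.57, 9.53 and 2.89 CPM (-1.67 ± 0.41), and Clcn1, a muscle chloride channel, from 11, 14.3 and 10.8 to 4.2, 6.26 and 2.35 CPM (-1.51 ± 0.40). Ces1d, a carboxylesterase that acts on triglycerides, went from 63.1, 57 and 71.9 to 23.9, 31.4 and 7.65 CPM (-1.62 ± 0.47). In these 4 genes TAC replicate 3 was the lowest of all libraries. Their groups did not overlap, which was a condition for being named among the largest changes. Epha4, an ephrin receptor, fell from 147, 141 and 152 to 57.2, 83.8 and 46.4 CPM (-1.23 ± 0.21), and Rbfox1, a splicing factor of muscle and neurons, from 87.7, 88.4 and 83.8 to 47, 41 and 21.9 CPM (-1.25 ± 0.31). Armc2, Ttll1, Pfkfb1, Ppl, Klf15, Abca12, Cdkn1c and Il15 also stood among the largest falls. Thrsp, a lipogenic gene, was named with them, but its sham values of 17.2, 21.6 and 66.5 CPM include the library high in adipocyte markers, while the TAC libraries stood at 13.4 to 14.1 CPM. Clcn1, Ces1d and Rbfox1 did not pass without TAC replicate 3 (adjusted p = 0.0556 to 0.0954). Ttll1 did not pass without sham 1, sham 2, sham 3 or TAC 3, Pfkfb1 without sham 2, sham 3 or TAC 3, Ppl without sham 1, sham 2 or TAC 3, Thrsp without sham 3 or TAC 3 (largest adjusted p = 0.15 to 0.294). Thrsp had a log2 fold change of -0.49 without sham replicate 3 (-1.35 by the counts of all libraries).

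Genes of the fetal and stretched heart muscle cell rose. Nppa and Nppb encode the natriuretic peptides that stretched muscle releases, Acta1 the skeletal form of actin, Myh7 the slow myosin of the fetal ventricle, and Ankrd1, Ankrd2 and Xirp2 proteins bound to the Z-disc and to titin. Nppa stood at 307, 181 and 188 CPM in the sham and 3256, 1812 and 2060 CPM in the TAC libraries (3.40 ± 0.51, adjusted p = 0.000283), and Nppb at 65.5, 44.4 and 47.2 CPM in the sham and 105, 134 and 175 CPM in the TAC libraries (1.40 ± 0.35, adjusted p = 0.00722). No TAC library overlapped a sham library in either gene, and the difference between the 2 rises was not tested. Acta1 stood at 115, 123 and 215 CPM in the sham and 727, 2895 and 1938 CPM in the TAC libraries (3.62 ± 0.45, adjusted p = 0.00017). TAC replicate 2, the mildest TAC library in most genes, was the highest for Acta1. Ankrd1 rose from 1062, 1177 and 1085 to 3629, 3818 and 5481 CPM (1.96 ± 0.33, adjusted p = 0.000582), and Fhl1, a LIM protein that takes part in stretch sensing, from 138, 139 and 140.1 to 381, 313 and 668 CPM (1.71 ± 0.37). Of the 20 tested genes of natriuretic peptides and the fetal muscle program 10 rose and 2 fell, with a median of 1.13. The 2 that fell were Npr3, the receptor that clears natriuretic peptides (-0.56 ± 0.16), and Myh7b, a slow myosin gene that hosts a microRNA (-0.74 ± 0.26). The guanylyl cyclase receptors Npr1 (-0.29 ± 0.14, adjusted p = 0.127) and Npr2 (-0.25 ± 0.10, adjusted p = 0.0776) did not pass. Ankrd2 did not pass without sham 2, sham 3 or TAC 3, Npr3 without sham 2 or TAC 1, Myh7b without sham 1, sham 2, TAC 1 or TAC 3 (largest adjusted p = 0.0722 to 0.202). Ankrd2 had a log2 fold change of 2.51 without TAC replicate 3 (3.25 by the counts of all libraries).

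The promoters of this list, of which 10 of 20 tested members rose and 2 fell, are shown as a description without a test. Of the 21 listed genes 20 were found in the RefSeq promoter table (build GRCm38.p6), with 25 promoters. In the 250 bases before the start site, on either strand, the MCAT letters CATTCC, read by TEAD factors, stood in 6 of the 25 promoters (24%) and in 12.6% of all 32851 promoters of the table. The CArG box, read by serum response factor, stood in 3 (12.0%) and in 1.47% of all. The MCAT letters and the CArG box do not share bases in the promoters printed. Acta1 (chr8:123894776-123895025, minus strand) held both, and Myh7 (chr14:54994627-54994876, minus strand) the MCAT letters alone, on the other strand. Motif letters are in capitals.
Acta1: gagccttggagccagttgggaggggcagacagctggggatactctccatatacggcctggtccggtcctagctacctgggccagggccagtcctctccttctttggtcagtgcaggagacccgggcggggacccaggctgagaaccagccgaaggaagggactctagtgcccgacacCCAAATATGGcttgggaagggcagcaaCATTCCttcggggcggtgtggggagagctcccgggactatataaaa
Myh7: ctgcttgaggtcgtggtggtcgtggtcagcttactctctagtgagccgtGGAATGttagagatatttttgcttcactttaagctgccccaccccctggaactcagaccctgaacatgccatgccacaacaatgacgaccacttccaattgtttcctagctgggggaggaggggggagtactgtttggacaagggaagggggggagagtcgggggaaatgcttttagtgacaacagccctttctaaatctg
In Acta1 the CArG box began 73 bases and the MCAT letters 46 bases before the start. Nppa held neither in this window, Nppb held the MCAT letters in 1 place and Ankrd1 in 2.

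**Figure D2:**
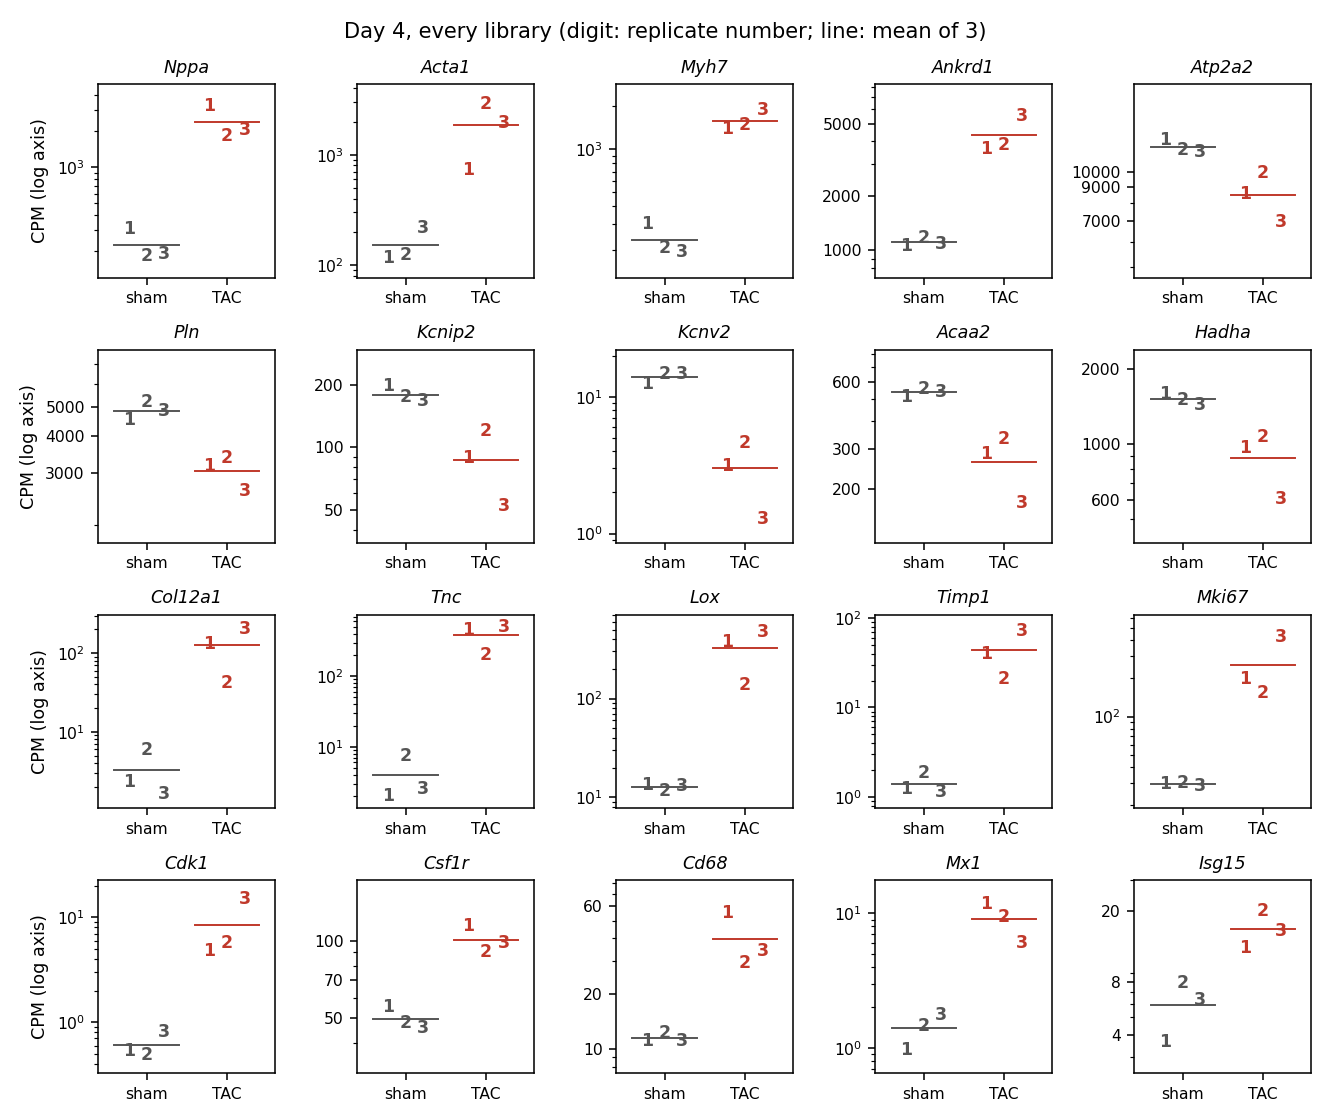
CPM (log axis) of 20 genes in each of the 6 libraries of day 4, with sham in grey and TAC in red, digits for the replicate number and lines for the mean of 3. The 20 genes were picked among genes that passed, and the groups do not overlap in any of them. This follows largely from the choice. No overlap was found in 1924 of the 1995 genes that rose, 1325 of the 1399 that fell and 41.1% of all tested genes. TAC replicate 3 is the farthest from sham in Kcnv2, Acaa2, Mki67 and Cdk1 but not in Nppa, Mx1 or Isg15.

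Myh6, the adult myosin, stood at 57470, 44000 and 44080 CPM in the sham and 37220, 41660 and 28140 CPM in the TAC libraries (-0.44 ± 0.20, adjusted p = 0.11) and did not pass. Tnni3, cardiac troponin I, (-0.72 ± 0.22, adjusted p = 0.0233) and the ventricular myosin light chains Myl2 (-0.63 ± 0.21) and Myl3 (-0.56 ± 0.19) fell. They were the 3 genes of the sarcomere list that fell, and without each library in turn the number of list genes that fell was 0, 0, 1, 1, 4 and 0. Among the tropomyosins Tpm1, the heart form, stood at 7588, 7041 and 6294 CPM in the sham and 6783, 7020 and 5636 CPM in the TAC libraries (-0.11 ± 0.14, adjusted p = 0.617). Tpm2 rose from 34.2, 21.7 and 23.1 to 58.3, 48.2 and 89.95 CPM (1.32 ± 0.23, adjusted p = 0.000679), and Tpm3 (0.71 ± 0.15) and Tpm4 (0.96 ± 0.20) rose as well. By the authors' RPKM, which accounts for length, Tpm1 remained far above the rest, at 6538 ± 793 RPKM in TAC hearts against 33.0 ± 10.9 for Tpm2, 50.9 ± 11.2 for Tpm3 and 119 ± 42.0 for Tpm4. Mybpc2, the fast skeletal form of myosin-binding protein C, rose from 13.8, 8.94 and 7.95 to 42.6, 51.8 and 76.7 CPM (2.49 ± 0.39, adjusted p = 0.00041), and the intermediate filament desmin, Des, from 1786, 1475 and 1574 to 2974, 2210 and 2594 CPM (0.69 ± 0.12). Of 35 tested sarcomere and Z-disc genes 10 rose and 3 fell, with a median of -0.09. The 10 that rose were Mybpc2, Tpm2, Tpm3, Tpm4, Des, the filamin Flnc, Synpo2l, and the PDZ-LIM proteins Pdlim1, Pdlim5 and Pdlim7. Flnc and Synpo2l did not pass without TAC replicate 3 (adjusted p = 0.0841 to 0.0939). Tnni3 did not pass without sham 1, sham 2, TAC 1 or TAC 3, Myl2 and Myl3 without sham 1, sham 2, sham 3, TAC 1 or TAC 3 (largest adjusted p = 0.121 to 0.138).

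Of 22 genes of calcium cycling 3 rose and 5 fell, against 14.4% and 10.1% of all tested genes. Those that fell were Atp2a2, Pln and Hrc of the sarcoplasmic reticulum, the calcium channel Cacna1c and the kinase Camk2b. Atp2a2, the pump that refills the reticulum, went from 12660, 11770 and 11620 to 8489, 9952 and 6932 CPM (-0.51 ± 0.18, adjusted p = 0.0397), Pln, phospholamban, the brake on that pump, from 4516, 5209 and 4850 to 3170, 3374 and 2604 CPM (-0.67 ± 0.13, adjusted p = 0.00163), and Hrc, a calcium-binding protein of the reticulum, from 2072, 1797 and 1840 to 1094, 1400 and 694 CPM (-0.84 ± 0.26). Pump and brake fell together, and the groups did not overlap for either. Casq2, the calcium store protein, stood at 959, 959 and 985 CPM in the sham and 878, 1091 and 936 CPM in the TAC libraries (0.00 ± 0.11, adjusted p = 0.994), and Ryr2, the release channel, had -0.22 ± 0.11 (adjusted p = 0.137). Slc8a1, the sodium-calcium exchanger, rose from 1363, 1277 and 1333 to 2006, 1672 and 1772 CPM (0.46 ± 0.12, adjusted p = 0.0109). Rcan1, a calcineurin regulator that calcineurin itself induces, rose from 70.7, 65.6 and 62.5 to 114, 124 and 224 CPM (1.22 ± 0.26, adjusted p = 0.00269). Calcium genes that fell numbered 1, 2, 2, 2, 5 and 1 without each library in turn. Atp2a2 and Camk2b did not pass without sham 1, sham 2, sham 3, TAC 1 or TAC 3, Hrc without sham 1, TAC 1 or TAC 3, Cacna1c without sham 1, sham 2, sham 3 or TAC 3, Slc8a1 without TAC 1 (largest adjusted p = 0.0538 to 0.228).

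Of 32 genes of potassium and sodium channels and connexins 12 fell and 3 rose, with a median of -0.43. Kcnip2, the subunit that shapes the transient outward current, fell from 197, 175 and 166 to 88.9, 119.5 and 51.8 CPM (-1.05 ± 0.33, adjusted p = 0.0255). Its pore-forming partners were Kcnd3, which fell (-0.48 ± 0.16), and Kcnd2, which had -0.81 ± 0.37, adjusted p = 0.118. Among the inward rectifiers Kcnj2 (-0.64 ± 0.17), Kcnj3 (-0.74 ± 0.24), Kcnj5, Kcnj8 (-0.61 ± 0.13), Kcnj11 (-0.64 ± 0.14) and Kcnj12 all passed, and so did Abcc9, the sulfonylurea receptor that pairs with Kcnj8 and Kcnj11, which went from 992, 1050 and 1103 to 684, 673 and 455 CPM (-0.80 ± 0.20, adjusted p = 0.00663). Connexin 43, Gja1, had -0.21 ± 0.10, adjusted p = 0.147. TAC replicate 3 was the lowest library in all 12 genes that fell, and the lowest TAC library in 77.8% of all genes that fell. Channel genes that rose numbered 2, 1, 1, 1, 4 and 1 and those that fell 5, 7, 8, 8, 13 and 3 without each library in turn. Kcnj2 and Abcc9 did not pass without TAC replicate 3 (adjusted p = 0.0547 to 0.0798). Kcnip2 and Kcnj12 did not pass without sham 1, sham 2, TAC 1 or TAC 3, Kcnd3 and Kcnj3 without sham 1, sham 2, sham 3 or TAC 3, Kcnj5 without sham 1, sham 2 or TAC 3 (largest adjusted p = 0.0979 to 0.219).

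In the signalling of adrenaline and cyclic nucleotides 4 of 29 genes rose and 5 fell, against 14.4% and 10.1% of all tested genes. Adra1a, the alpha-1A receptor, fell from 42.2, 51.6 and 45.9 to 30.2, 24.4 and 16.5 CPM (-0.98 ± 0.25, adjusted p = 0.00746), while the beta-1 receptor Adrb1 had -0.23 ± 0.17, adjusted p = 0.341. The cyclic AMP phosphodiesterases Pde3a (-0.53 ± 0.14) and Pde4d (-0.69 ± 0.13) fell, and Pde1a, which calcium activates, rose (0.80 ± 0.28). Genes of this list that rose numbered 3, 2, 1, 2, 3 and 1 and those that fell 5, 5, 5, 6, 6 and 1 without each library in turn. Of 14 genes of the renin-angiotensin and endothelin systems 2 rose and 2 fell, against 14.4% and 10.1% of all tested genes. Ace, the angiotensin-converting enzyme, rose from 112, 90.2 and 84.7 to 161, 154 and 166 CPM (0.74 ± 0.18, adjusted p = 0.00548), and Edn3, an endothelin, from 1.14, 1.46 and 1.61 to 2.78, 5.77 and 4.71 CPM (1.64 ± 0.51). Agtr1a, the angiotensin receptor, fell from 51, 56.7 and 56.6 to 38.6, 43.3 and 29.5 CPM (-0.56 ± 0.18), as did Nr3c2, the mineralocorticoid receptor (-0.68 ± 0.14). Ace and Agtr1a moved in opposite directions, each without overlap between the groups. No overlap was found in 6 of the 14 genes, near the 41.1% of all tested genes. Renin-angiotensin and endothelin genes that rose numbered 1, 1, 1, 2, 1 and 1 and those that fell 2, 1, 1, 1, 2 and 1 without each library in turn. Adra1a did not pass without TAC replicate 3 (adjusted p = 0.061). Pde3a did not pass without sham 1 or TAC 3, Pde1a without sham 1, sham 2, sham 3, TAC 1 or TAC 3, Edn3 without sham 1, sham 2, sham 3, TAC 2 or TAC 3, Agtr1a without sham 2, sham 3, TAC 1 or TAC 3 (largest adjusted p = 0.0764 to 0.17).

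Genes of mitochondrial energy metabolism were lower along the whole route from fatty acid uptake to ATP synthesis. Of 37 genes of fatty acid uptake and oxidation 22 fell and 0 rose (median -0.57), of 36 subunits of complex I 20 fell and 0 rose (-0.50), of 42 subunits of complexes II to V 25 fell and 0 rose (-0.50), and of 28 genes of the TCA cycle and pyruvate dehydrogenase 18 fell and 1 rose (-0.47). In complex I every one of the 36 tested subunits had a negative value, from -0.67 to -0.14. The groups did not overlap in 34 of them, against 41.1% of all tested genes. Without each library in turn 11, 6, 10, 9, 24 and 4 subunits of complex I fell, and 14, 8, 16, 10, 32 and 5 of complexes II to V. For the TCA cycle the counts were 15, 13, 12, 14, 22 and 3. In bulk tissue fewer heart muscle cells and less RNA per cell cannot be told apart. Of the 10 cardiomyocyte markers 5 fell and 0 rose (median -0.50), their summed level was 178300 to 202000 CPM in sham and 134900 to 172700 CPM in TAC libraries, and their part in the fall of the mitochondrial genes was not tested. Cardiomyocyte markers that fell numbered 1, 1, 2, 1, 5 and 1 without each library in turn.

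Of the fatty acid genes Cd36, which takes up fatty acids, went from 1389, 1467 and 1658 to 1205, 1319 and 844 CPM (-0.42 ± 0.15, adjusted p = 0.0424), and Cpt2, which releases them inside the mitochondrion, from 294, 302 and 316 to 207, 245 and 146 CPM (-0.61 ± 0.18). Of the dehydrogenases that open the cycle Acadvl (-0.66 ± 0.18) and Acadm (-0.79 ± 0.20) fell, and Acadl had -0.31 ± 0.17, adjusted p = 0.183. Hadha and Hadhb, the trifunctional protein, went from 1599, 1514 and 1434 to 966, 1068 and 604 CPM (-0.79 ± 0.22) and from 959.6, 1114 and 1073 to 635, 699 and 481 CPM (-0.79 ± 0.17). Acaa2, the thiolase that ends the cycle, had the lowest value of the list, from 515, 555 and 542 to 286, 334 and 173 CPM (-1.02 ± 0.25, adjusted p = 0.00605). TAC replicate 3 was the lowest in all 22 genes that fell, against the lowest TAC library in 77.8% of all genes that fell. Fatty acid genes that fell numbered 15, 15, 13, 19, 24 and 5 without each library in turn. Cpt1b was counted at under 3 CPM in every library but stood at 177 ± 13.8 RPKM in sham hearts in the authors' RPKM table. Cpt1b fell in both, by the counts from 2.73, 2.84 and 2.73 to 1.63, 1.46 and 1.23 CPM (-0.95 ± 0.31, adjusted p = 0.0303) and in the RPKM table with -0.438 ± 0.15 (adjusted p = 0.0405), and why its level differs between the 2 tables was not tested. Acadvl, Acadm and Hadha did not pass without TAC replicate 3 (adjusted p = 0.066 to 0.0908). Cd36 did not pass without sham 1, sham 2, sham 3, TAC 1 or TAC 3, Cpt2 without sham 3 or TAC 3, Cpt1b without sham 1, sham 2, sham 3, TAC 2 or TAC 3 (largest adjusted p = 0.134 to 0.267).

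In the respiratory chain Ndufa5 of complex I fell from 276, 257 and 248 to 161, 189 and 140.5 CPM (-0.67 ± 0.19, adjusted p = 0.015), Sdha of complex II from 1069, 1038 and 1030 to 699, 765 and 574 CPM (-0.62 ± 0.16), Uqcrc1 of complex III from 1077, 1067 and 980.5 to 699.5, 826 and 619 CPM (-0.54 ± 0.18) and Atp5a1 of ATP synthase from 3115, 3020 and 2885 to 1934, 2243 and 1638 CPM (-0.63 ± 0.17). In complex IV Cox6a2, the muscle form of subunit 6a, fell from 2814, 2240 and 2187 to 1605, 1849 and 1152 CPM (-0.65 ± 0.22, adjusted p = 0.0328), as did Cox8b (-0.73 ± 0.24) and the common subunits Cox4i1 (-0.65 ± 0.16) and Cox7c (-0.46 ± 0.096). Cox7a1, another muscle form, had -0.88 ± 0.33, adjusted p = 0.0559, and Cox6a1, the form of other tissues, stood at 131, 130.5 and 138 CPM in the sham and 122, 134 and 146 CPM in the TAC libraries (0.01 ± 0.12, adjusted p = 0.954). The difference between the 2 forms of subunit 6a was not tested. Ndufa5, Sdha and Atp5a1 did not pass without TAC replicate 3 (adjusted p = 0.071 to 0.0909). Uqcrc1 and Cox8b did not pass without sham 1, sham 2, sham 3, TAC 1 or TAC 3, Cox6a2 without sham 1, sham 2, TAC 1 or TAC 3 (largest adjusted p = 0.165 to 0.185).

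The pyruvate dehydrogenase kinases, which switch off the entry of pyruvate into the TCA cycle, did not move together. Pdk2, the most abundant by RPKM (352 ± 17.3 RPKM in sham), fell from 784, 735 and 758 to 477, 529 and 312 CPM (-0.79 ± 0.21, adjusted p = 0.0104), and Pdk1 fell (-0.40 ± 0.12). Pdk4, which fasting induces, stood at 336, 246 and 448 CPM in the sham and 461, 274 and 223 CPM in the TAC libraries (-0.10 ± 0.36, adjusted p = 0.859), and the groups overlapped. Pdk3 rose from 1.41, 2.03 and 1.45 to 5.69, 2.78 and 4.22 CPM (1.37 ± 0.37, adjusted p = 0.0108). Idh2, the mitochondrial isocitrate dehydrogenase that makes NADPH, fell from 1276, 1198 and 1164 to 676, 829 and 539 CPM (-0.83 ± 0.20). Pdk2 did not pass without TAC replicate 3 (adjusted p = 0.0814). Pdk1 did not pass without sham 2, sham 3 or TAC 3, Pdk3 without TAC 1 (largest adjusted p = 0.0553 to 0.131).

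Of 23 genes that break down branched-chain amino acids 17 fell and 1 rose, with a median of -0.59. Those that fell include both parts of the rate-setting dehydrogenase, Bckdha (145, 131 and 132 to 74.2, 92.4 and 53.3 CPM, -0.89 ± 0.21, adjusted p = 0.00552) and Bckdhb (-0.77 ± 0.17), its kinase Bckdk (-0.38 ± 0.12) and its phosphatase Ppm1k (198, 199.7 and 191 to 131, 120.4 and 76.2 CPM, -0.85 ± 0.20). The kinase and the phosphatase act against each other, and both fell. The member that rose was Bcat1, the cytosolic transaminase, from 0.0879, 0.65 and 0.482 to 4.68, 1.88 and 5.99 CPM (3.32 ± 0.62, adjusted p = 0.00119), while the mitochondrial transaminase Bcat2 had -0.29 ± 0.14, adjusted p = 0.142. On the RPKM scale Bcat1 remained small in TAC hearts, at 0.47 ± 0.25 RPKM against 21.1 ± 2.74 RPKM for Bcat2. TAC replicate 3 was the lowest library in all 17 genes that fell, against the lowest TAC library in 77.8% of all genes that fell. Members that fell numbered 15, 13, 15, 17, 17 and 11 without each library in turn. Bckdk did not pass without sham 1, sham 2, TAC 1 or TAC 3 (largest adjusted p = 0.16). Bcat1 had a log2 fold change of 1.90 in the authors' RPKM table (3.32 by the counts of all libraries).

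Transcription factors of metabolism were lower too. Of 28 metabolic regulators 13 fell and 1 rose. Regulators that fell numbered 10, 10, 10, 9, 13 and 5 without each library in turn. Ppargc1a, the coactivator that promotes mitochondrial genes, fell from 369, 368 and 364 to 266, 279 and 178 CPM (-0.61 ± 0.16, adjusted p = 0.0107), and Ppara, the fatty acid receptor, from 101, 107 and 83.6 to 61.5, 78 and 53.4 CPM (-0.60 ± 0.18). Klf15, which drives amino acid and lipid metabolism and holds back hypertrophy, fell from 57.3, 54.4 and 49.9 to 27.8, 26.1 and 18 CPM (-1.17 ± 0.26, adjusted p = 0.00322), and Nr1d1, a clock repressor, from 268, 306 and 305 to 179.7, 193 and 163 CPM (-0.72 ± 0.11, adjusted p = 0.000423). Esrra had -0.35 ± 0.15, adjusted p = 0.0927, while its relatives Esrrb and Esrrg fell, as did the thyroid hormone receptors Thra and Thrb and the retinoid receptors Rxra and Rxrg. Klf15 and Nr1d1 had the lowest values of the list, and no TAC library reached a sham library in either. In the clock list, Nr1d1, Nr1d2, Per3, Cry2 and Hlf fell and Fkbp5, Bhlhe40 and Bhlhe41 rose, while Arntl (-0.06 ± 0.27, adjusted p = 0.894) and Clock (0.01 ± 0.09, adjusted p = 0.966) did not pass. The labels used here give no hour at which hearts were taken. Clock genes that rose numbered 3, 3, 3, 3, 3 and 2 and those that fell 3, 3, 2, 7, 5 and 2 without each library in turn. Ppargc1a, Rxra and Fkbp5 did not pass without TAC replicate 3 (adjusted p = 0.0613 to 0.086). Ppara and Esrrb did not pass without sham 1, sham 2, TAC 1 or TAC 3, Esrrg without sham 3 or TAC 3, Rxrg without sham 1, sham 2, sham 3, TAC 1 or TAC 3, Per3 without sham 1, sham 2, sham 3, TAC 2 or TAC 3, Cry2 without sham 1, sham 3 or TAC 3, Hlf without sham 2, sham 3 or TAC 3 (largest adjusted p = 0.127 to 0.23).

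In glycolysis forms of phosphofructokinase and of lactate dehydrogenase moved in opposite directions. Of 29 genes 5 rose and 6 fell, against 14.4% and 10.1% of all tested genes, with a median of -0.11. Pfkm, the muscle form of phosphofructokinase, fell from 549, 525 and 503 to 356, 415 and 270.4 CPM (-0.60 ± 0.17, adjusted p = 0.0149), and Pfkp, the platelet form, rose from 59.9, 59.5 and 58.4 to 119, 109 and 126 CPM (0.99 ± 0.16, adjusted p = 0.000507). Ldhb, the heart form of lactate dehydrogenase, fell from 1048, 965 and 898 to 561, 659.5 and 412 CPM (-0.84 ± 0.22, adjusted p = 0.0107), and Ldha, the form of skeletal muscle, rose from 359, 389.8 and 369 to 416, 464 and 443 CPM (0.24 ± 0.086, adjusted p = 0.0421). Hk1 rose (0.32 ± 0.073, adjusted p = 0.0039) while Hk2 had -0.33 ± 0.12, adjusted p = 0.0588, and the muscle enolase Eno3 fell (-0.61 ± 0.22, adjusted p = 0.0498). The forms that fell were still the more abundant by RPKM in TAC hearts, with 140 ± 28.7 RPKM for Pfkm against 30.3 ± 2.19 for Pfkp and 549 ± 124 RPKM for Ldhb against 316 ± 16.1 for Ldha. The glucose transporters Slc2a1 (0.05 ± 0.20, adjusted p = 0.886) and Slc2a4 (-0.57 ± 0.21, adjusted p = 0.0505) did not pass. Glycolysis genes that rose numbered 3, 3, 4, 4, 5 and 3 and those that fell 5, 4, 4, 5, 8 and 1 without each library in turn. Pfkm and Ldhb did not pass without TAC replicate 3 (adjusted p = 0.0805 to 0.11). Ldha did not pass without sham 1, sham 2, sham 3, TAC 2 or TAC 3, Eno3 without sham 1, sham 2, sham 3, TAC 1 or TAC 3 (largest adjusted p = 0.133 to 0.238).

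**Figure D3:**
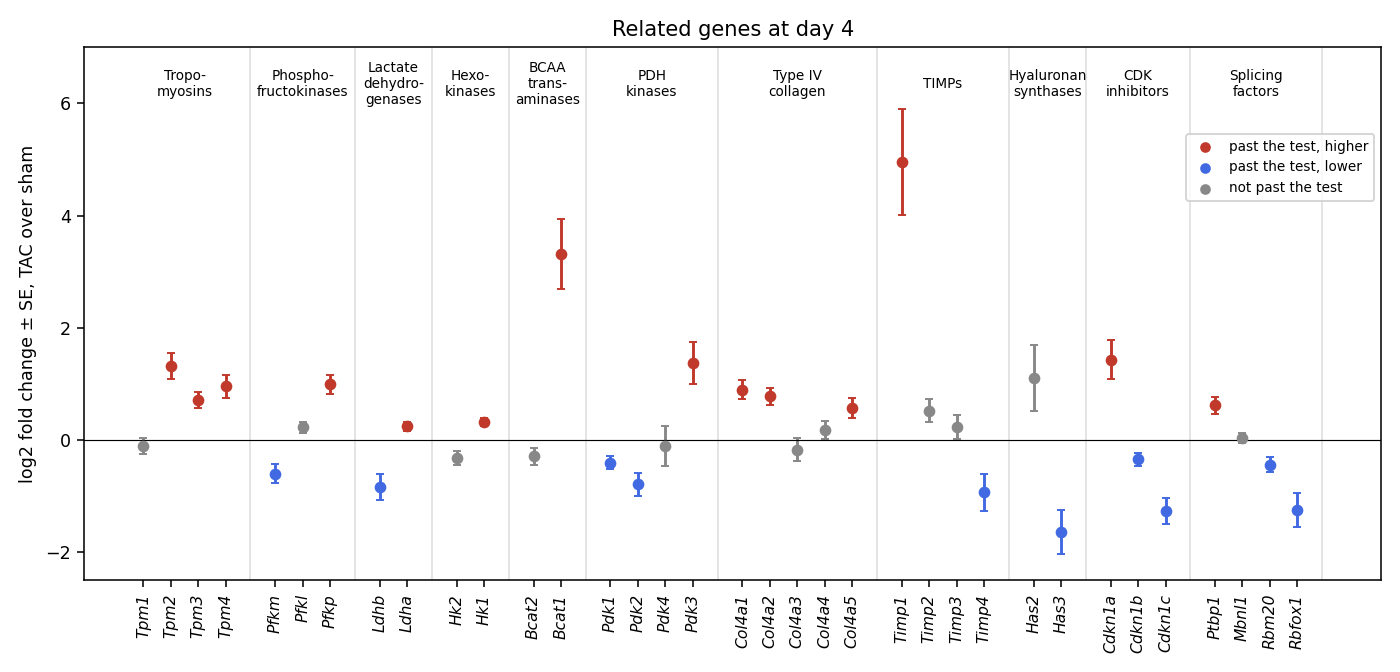
Log2 fold change of TAC over sham at day 4 ± SE (y axis) for members of 11 groups of related genes (x axis), with colours as in the plot of gene lists; BCAA stands for branched-chain amino acids and PDH for pyruvate dehydrogenase. In 10 of the 11 groups at least 1 member rose while another fell or did not pass. Examples are Pfkp against Pfkm, Timp1 against Timp4 and Cdkn1a against Cdkn1c, while 0 of the 4 tropomyosins fell. The groups and their members were chosen with earlier results known, so that this count is a description. Differences between members were not tested.

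Of 23 genes of serine, one-carbon and polyamine synthesis 6 rose and 2 fell, against 14.4% and 10.1% of all tested genes. The 2 that fell are not reported here by name, and the lower of them had -0.76 (adjusted p = 0.00496). Phgdh (0.967, 0.163 and 0.723 to 2.37, 1.6 and 3.74 CPM, 2.07 ± 0.51, adjusted p = 0.0071) and Psat1 (1.5, 1.79 and 1.77 to 3.19, 3.69 and 9.2 CPM, 1.68 ± 0.46), which make serine, rose, as did Pycr1 and Aldh18a1, which make proline, the amino acid that collagen needs in bulk. Pycr1 stood at 0.44, 0.0812 and 0.161 CPM in the sham and 2.03, 0.487 and 2.03 CPM in the TAC libraries (2.73 ± 0.80; 1.42 in the RPKM table). Members that rose numbered 6, 5, 4, 6, 9 and 1 and those that fell 1, 1, 2, 1, 2 and 1 without each library in turn. Gatm, which makes the precursor of creatine, rose from 3.17, 5.12 and 5.38 to 9.22, 11.2 and 12.9 CPM (1.28 ± 0.26, adjusted p = 0.00212), and Ckb, the brain form of creatine kinase, from 31.7, 31.8 and 30.6 to 42.1, 42.1 and 42.9 CPM (0.43 ± 0.10, adjusted p = 0.00443), while the muscle form Ckm had -0.63 ± 0.24, adjusted p = 0.0562. In the salvage of NAD Nampt, its rate-limiting enzyme, fell from 208, 253 and 242 to 158, 160.2 and 93.3 CPM (-0.78 ± 0.21, adjusted p = 0.00998). Nmrk2, a nicotinamide riboside kinase of muscle, rose by the counts, from 1.58, 1.3 and 1.04 to 19.1, 24.6 and 19.6 CPM (4.01 ± 0.64, adjusted p = 0.000423), but stood at 19.8 ± 1.84 RPKM in sham and 21.0 ± 3.74 RPKM in TAC hearts in the authors' RPKM table (0.07 on its log2 scale). The call on Nmrk2 depends on which table is read. Slc16a3, a lactate exporter, rose by the counts from 0.44, 0.487 and 0.482 to 2.37, 1.81 and 3.85 CPM (2.50 ± 0.58, adjusted p = 0.00429) and had 0.96 in the RPKM table, where it did not pass. Phgdh, Psat1 and Nampt did not pass without TAC replicate 3 (adjusted p = 0.0564 to 0.154). Pycr1 did not pass without sham 2, sham 3, TAC 1 or TAC 3 (largest adjusted p = 0.0823). Psat1 had a log2 fold change of 1.03 without TAC replicate 3 (1.68 by the counts of all libraries) and Pycr1 3.56 without sham replicate 1 (2.73 by the counts of all libraries).

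Protein folding genes of the endoplasmic reticulum, through which collagens and other secreted proteins pass, rose in part. Of 28 genes 14 rose and 1 fell, with a median of 0.33. Among them were Kdelr3, which returns chaperones to the reticulum (3.43, 3.41 and 2.17 to 7.52, 6.12 and 12.5 CPM, 1.54 ± 0.41, adjusted p = 0.0105), P4hb, a disulfide isomerase that is also part of prolyl hydroxylase (157, 143 and 134 to 267, 214 and 292 CPM, 0.83 ± 0.13, adjusted p = 0.000283), Pdia6 (0.78 ± 0.15), Calr (0.50 ± 0.11), Edem1, Manf and Hsp90b1 (0.43 ± 0.13), while the chaperone Hspa5 had 0.19 ± 0.11, adjusted p = 0.188. Of 27 genes of the integrated stress response 3 rose and 2 fell, against 14.4% and 10.1% of all tested genes: Atf3 rose (1.18 ± 0.34), and Ddit3 (-0.04 ± 0.18, adjusted p = 0.896) and Atf4 (0.10 ± 0.098, adjusted p = 0.464) did not pass. Of the heat shock proteins 6 of 28 rose, against 14.4% of all tested genes. Among them were Hspb7, abundant in heart muscle (2692, 2470 and 2479 to 3626, 3490 and 4048 CPM, 0.55 ± 0.13, adjusted p = 0.00642), and Hspa1b (1.51 ± 0.41). Of 25 genes of muscle atrophy and autophagy 11 fell and 0 rose, including the ubiquitin ligases Trim63 (238, 199.7 and 193 to 144, 164 and 137 CPM, -0.50 ± 0.15, adjusted p = 0.0201) and Fbxo32 (-0.38 ± 0.13). Reticulum genes that rose numbered 12, 13, 7, 9, 15 and 6 without each library in turn. For the heat shock proteins these counts were 5, 3, 5, 7, 7 and 2, and the atrophy and autophagy genes that fell numbered 2, 4, 7, 7, 10 and 0. Kdelr3 did not pass without sham 3 or TAC 3, Manf without sham 1, sham 3, TAC 1 or TAC 3, Hsp90b1 without sham 3, TAC 1 or TAC 3, Atf3 without sham 2, sham 3, TAC 1 or TAC 3, Hspa1b without sham 2 or TAC 3, Trim63 without sham 1, TAC 1 or TAC 3, Fbxo32 without sham 1, sham 2, sham 3, TAC 2 or TAC 3 (largest adjusted p = 0.0624 to 0.237).

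Genes of dividing cells rose almost without exception. Of 42 genes of mitosis and G2/M 40 rose and 0 fell, with a median of 3.15, the highest of the pathway lists. Cdk1, the kinase that starts mitosis, stood at 0.527, 0.487 and 0.803 CPM in the sham and 4.74, 5.63 and 15 CPM in the TAC libraries (3.79 ± 0.60, adjusted p = 0.000384), Ccnb2, one of its cyclins, at 0.352, 0.731 and 0.482 CPM in the sham and 5.29, 4.8 and 10.9 CPM in the TAC libraries (3.72 ± 0.55, adjusted p = 0.000268), and Mki67 at 29.7, 29.9 and 28.5 CPM in the sham and 198, 152 and 419.5 CPM in the TAC libraries (3.13 ± 0.42, adjusted p = 0.00017). TAC replicate 3 was the highest library in all 40 genes that rose, against the highest TAC library in 68.7% of all genes that rose. In Cdk1, Ccnb2 and Mki67 TAC replicates 1 and 2 were closer to each other than to replicate 3. The genes that did not pass were Cenpa, a centromere histone (-0.06 ± 0.12, adjusted p = 0.746), and Cenpf, a kinetochore protein that stood at 218, 156 and 130.2 CPM in the sham and 89.2, 80.7 and 95.5 CPM in the TAC libraries (-0.93 ± 0.42, adjusted p = 0.106). Without each day 4 library in turn 38 to 40 members rose. In which cells these genes were read cannot be told from whole tissue. Cdk1 had a log2 fold change of 3.08 without TAC replicate 3 and 3.09 in the authors' RPKM table (3.79 by the counts of all libraries).

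The promoters of the mitosis list, of which 40 of 42 members rose, are likewise shown as a description without a test. Of the 42 genes 34 were found in the RefSeq table, with 36 promoters. In the 250 bases before the start, on either strand, the letters of the cell cycle homology region, TTTGAA or TTCGAA, stood in 13 promoters (36.1%) and in 17.1% of all promoters of the table, and the CCAAT letters, bound by NF-Y, in 27 (75.0%) and in 33.8% of all. Matches of the 2 motifs share no bases in the promoters printed. Cdk1 (chr10:69352913-69353162, minus strand) and Ccnb2 (chr9:70421555-70421804, minus strand) held both kinds and had the largest log2 fold changes among members that did, and their motifs are in capitals.
Cdk1: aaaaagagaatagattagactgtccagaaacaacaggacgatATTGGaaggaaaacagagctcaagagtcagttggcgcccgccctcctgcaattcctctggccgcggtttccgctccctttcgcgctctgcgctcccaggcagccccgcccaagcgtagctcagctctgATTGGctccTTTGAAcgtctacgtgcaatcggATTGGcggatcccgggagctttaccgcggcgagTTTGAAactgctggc
Ccnb2: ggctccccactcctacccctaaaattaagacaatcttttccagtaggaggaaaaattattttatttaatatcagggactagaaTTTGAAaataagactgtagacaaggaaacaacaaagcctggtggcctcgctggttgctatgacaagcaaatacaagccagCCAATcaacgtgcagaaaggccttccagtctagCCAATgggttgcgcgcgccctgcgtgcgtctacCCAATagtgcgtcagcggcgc
In Cdk1 the 3 CCAAT matches began 208, 80 and 48 bases and the cell cycle letters 71 and 15 bases before the start. In Ccnb2 they began 87, 54 and 21 bases and the cell cycle letters 167 bases before the start.

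Genes of DNA replication rose less uniformly: 22 of 38 rose and 1 fell, with a median of 0.94. Of 26 replication-dependent histone genes 24 rose, with a median of 2.62, and their copies are so alike that reads may be split among them. E2f1, which starts S phase, rose from 0.703, 0.65 and 0.964 to 2.85, 2.09 and 5.46 CPM (2.16 ± 0.36, adjusted p = 0.000582), and Tk1, a thymidine kinase of S phase, from 0.352, 0.325 and 0.883 to 1.69, 2.92 and 8.13 CPM (3.02 ± 0.55; 1.11 in the RPKM table). Pcna, the replication clamp, which resting tissue also holds, rose from 35.8, 39.4 and 36.2 to 45.8, 43.3 and 62.6 CPM (0.45 ± 0.14). The inhibitors of cyclin-dependent kinases went apart. Cdkn1a, p21, rose from 12.8, 9.83 and 7.55 to 20.9, 22.9 and 37.2 CPM (1.43 ± 0.35, adjusted p = 0.00625), and Cdkn1c, p57, an imprinted gene, fell from 15.7, 18.1 and 15 to 6.78, 8.48 and 5.24 CPM (-1.26 ± 0.23, adjusted p = 0.000984). Cdkn1b, p27, fell as well (-0.34 ± 0.12, adjusted p = 0.0365). Replication genes that rose numbered 18, 20, 15, 26, 25 and 9 without each library in turn. Histone genes did so in 21, 21, 22, 23, 24 and 16. Cdkn1a did not pass without TAC replicate 3 (adjusted p = 0.0555). Pcna did not pass without sham 1, sham 3 or TAC 3, Cdkn1b without sham 2, sham 3, TAC 2 or TAC 3 (largest adjusted p = 0.204 to 0.219). Tk1 had a log2 fold change of 3.64 without sham replicate 3 and 2.12 without TAC replicate 3 (3.02 by the counts of all libraries).

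Cdkn1c was also the exception among imprinted growth genes. Of 24 genes of retinoic acid and imprinting 9 rose and 1 fell. Meg3 (21.4, 21.8 and 21.4 to 68.2, 42.1 and 65.9 CPM, 1.45 ± 0.33, adjusted p = 0.00374), Rian (1.57 ± 0.39), Mest (9.94, 11.8 and 7.23 to 29.7, 17 and 35.6 CPM, 1.51 ± 0.25, adjusted p = 0.00058), Peg10 and Grb10 rose, while Igf2 stood at 39, 49 and 39.5 CPM in the sham and 39.2, 36.9 and 34.2 CPM in the TAC libraries (-0.21 ± 0.13, adjusted p = 0.245). H19, the non-coding RNA beside Igf2, rose (1.11 ± 0.30, adjusted p = 0.0107), but its groups overlapped: 9.32, 20.4 and 13.7 to 48.5, 15.2 and 30.1 CPM. The retinoic acid enzymes Aldh1a2 (3.78, 3.17 and 3.13 to 18, 18.2 and 33.2 CPM, 2.79 ± 0.57, adjusted p = 0.00195) and Aldh1a3 (2.12 ± 0.62) rose, and Aldh1a1 had -0.08 ± 0.19, adjusted p = 0.8. Members that rose numbered 6, 9, 8, 8, 10 and 5 without each library in turn. Rian and Peg10 did not pass without TAC replicate 3 (adjusted p = 0.0508 to 0.0694). Grb10 did not pass without sham 1 or TAC 3, H19 without sham 1 or TAC 1, Aldh1a3 without sham 1, sham 3 or TAC 3 (largest adjusted p = 0.0921 to 0.169). Aldh1a3 had a log2 fold change of 2.98 without sham replicate 2, 1.41 without TAC replicate 3 and 1.47 in the authors' RPKM table (2.12 by the counts of all libraries).

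Matrix genes rose widely. Of 23 collagens 21 rose and 0 fell, with a median of 1.91. The fibril-forming Col1a1 (165, 161 and 131 to 2066, 885 and 2341 CPM) and Col3a1 (222, 238 and 222 to 1966, 1100 and 2249 CPM) rose, with no overlap between the groups. Col12a1 and Col11a1 had the highest values of the list. Col12a1, which decorates fibrils, stood at 2.29, 5.93 and 1.61 CPM in the sham and 130.1, 42.3 and 203 CPM in the TAC libraries (5.25 ± 1.13, adjusted p = 0.00276), and Col11a1, which seeds fibrils in cartilage, at 0, 0.812 and 0.321 CPM in the sham and 18.2, 0.835 and 19.6 CPM in the TAC libraries (5.04 ± 1.44, adjusted p = 0.015). For Col11a1 the lowest TAC library, replicate 2, was at 0.835 CPM against 0.812 CPM in the highest sham library, and it did not pass in the RPKM table (there 2.999 ± 1.07). In type IV collagen, the network of basement membranes, Col4a1 (720.4, 611 and 585 to 1054, 988 and 1533 CPM, 0.90 ± 0.18, adjusted p = 0.0015) and Col4a2 (0.78 ± 0.15) rose by less than 2-fold, and Col4a3 (-0.17 ± 0.20, adjusted p = 0.568) and Col4a4 (0.18 ± 0.17, adjusted p = 0.461), the pair found in kidney filters, did not pass. Without each library in turn 18 to 21 collagens rose. Col11a1 did not pass without sham 1, sham 3 or TAC 3 (largest adjusted p = 0.0597). Col12a1 had a log2 fold change of 6.02 without sham replicate 2 (5.25 by the counts of all libraries) and Col11a1 6.21 without sham replicate 2 (5.04 by the counts of all libraries).

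Enzymes that finish collagen rose with it: 21 of 26 rose and 0 fell. Lox, which crosslinks collagen and elastin, stood at 13.3, 11.6 and 13 CPM in the sham and 372, 137 and 468 CPM in the TAC libraries (4.69 ± 0.89, adjusted p = 0.00125), and its relatives Loxl1 (42.3, 39.97 and 33.7 to 126, 83.6 and 129 CPM, 1.55 ± 0.31), Loxl2, Loxl3 and Loxl4 rose too. Among the prolyl hydroxylase subunits P4ha3 rose from 0.0879, 0.487 and 0 to 16.1, 3.9 and 12.9 CPM (5.76 ± 0.96, adjusted p = 0.00058), P4ha1 rose (0.79 ± 0.17) and P4ha2 had 0.23 ± 0.099, adjusted p = 0.0866. Serpinh1, the collagen chaperone HSP47, rose from 150.4, 130.4 and 127 to 271, 226 and 400.2 CPM (1.14 ± 0.25). All 5 members of the Lox family rose, and their groups did not overlap. The same held for 1924 of the 1995 genes that rose and for 41.1% of all tested genes. Loxl4 did not pass without TAC replicate 3 (adjusted p = 0.0672). P4ha3 had a log2 fold change of 7.75 without sham replicate 2 and 4.66 in the authors' RPKM table (5.76 by the counts of all libraries).

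Of 41 matricellular and microfibril proteins 28 rose and 0 fell. Postn, periostin, stood at 44, 75.7 and 41 CPM in the sham and 1951, 794 and 1609 CPM in the TAC libraries (4.76 ± 0.69, adjusted p = 0.000226), and Fn1, fibronectin, at 134, 124 and 107 CPM in the sham and 1682, 631 and 1709 CPM in the TAC libraries (3.47 ± 0.59, adjusted p = 0.000625). In both genes TAC replicate 2 was the lowest TAC library, and still far above sham. Without each library in turn 22 to 31 members rose. Ctgf rose from 73, 45.5 and 42.2 to 241, 113 and 313 CPM (2.06 ± 0.48, adjusted p = 0.00439), while Cyr61, its closest relative, stood at 64.6, 64.6 and 52 CPM in the sham and 62, 60.1 and 94 CPM in the TAC libraries (0.26 ± 0.24, adjusted p = 0.47). Among the proteoglycans, where 12 of 25 rose and 1 fell, Bgn, biglycan, rose from 423, 447 and 394 to 2215, 1116 and 2110 CPM (2.11 ± 0.39, adjusted p = 0.00104) and Vcan, versican, from 51.8, 76.9 and 46.5 to 245, 201 and 357 CPM (2.20 ± 0.39), while Dcn, decorin, the mark of resident fibroblasts, stood at 684, 919 and 875 CPM in the sham and 1035, 851 and 919.5 CPM in the TAC libraries (0.18 ± 0.25, adjusted p = 0.627). The member that fell was Has3, a hyaluronan synthase (4.31, 5.28 and 6.5 to 0.881, 2.64 and 1.66 CPM, -1.64 ± 0.39, adjusted p = 0.00582), and Has2 had 1.10 ± 0.59, adjusted p = 0.174. Proteoglycan genes that rose numbered 10, 10, 10, 11, 12 and 5 without each library in turn. Has3 had a log2 fold change of -0.46 in the authors' RPKM table (-1.64 by the counts of all libraries).

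Of 35 matrix proteases and inhibitors 19 rose and 1 fell. The inhibitors of metalloproteinases went 3 ways. Timp1, at under 2 CPM in sham hearts, stood at 1.23, 1.87 and 1.12 CPM in the sham and 39.6, 20.6 and 71.8 CPM in the TAC libraries (4.96 ± 0.95, adjusted p = 0.00132). Timp2 (0.52 ± 0.20, adjusted p = 0.0627) and Timp3 (0.23 ± 0.21, adjusted p = 0.464), the most abundant by RPKM in sham hearts, did not pass. Timp4, the form typical of heart, fell (-0.93 ± 0.33, adjusted p = 0.0457), with groups that overlapped at 12.3, 12 and 6.75 to 5.08, 7.16 and 4.17 CPM. Mmp14, a membrane-bound collagenase, rose from 12.4, 14.3 and 16.5 to 58.1, 33.6 and 59.1 CPM (1.81 ± 0.34, adjusted p = 0.00121), and Mmp2, which it activates, had 0.64 ± 0.39, adjusted p = 0.242. The plasminogen activators Plau and Plat and the receptor Plaur rose. Plaur did not pass without TAC replicate 3 (adjusted p = 0.137). Timp4 did not pass without sham 1, sham 2, TAC 1 or TAC 3, Plau without sham 3 or TAC 3 (largest adjusted p = 0.0961 to 0.201). Plaur had a log2 fold change of 1.30 without TAC replicate 3 (1.89 by the counts of all libraries).

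Among signals to fibroblasts 12 of 35 genes of TGF-beta, activin and BMP signalling rose and 2 fell. The ligands Tgfb2 (21.7, 22.7 and 22.1 to 66, 41.4 and 91.2 CPM, 1.58 ± 0.39, adjusted p = 0.00654), Tgfb3 (1.62 ± 0.36) and Tgfb1 (31.6, 29.7 and 29.6 to 43.6, 39.3 and 55.4 CPM, 0.61 ± 0.14) rose, as did the activin subunit Inhba (1.32, 1.62 and 0.803 to 5.83, 3.34 and 13.6 CPM, 2.61 ± 0.68) and the activin antagonist Fstl3 (2.10 ± 0.48) and the related secreted protein Fstl1 (64.4, 71.2 and 55.1 to 439, 255 and 516 CPM, 2.67 ± 0.39, adjusted p = 0.000226). Bmp6 fell from 24, 19 and 23.4 to 11.7, 15.9 and 12.1 CPM (-0.74 ± 0.18, adjusted p = 0.00602), and the coreceptor Tgfbr3 fell (-0.60 ± 0.13). The intracellular Smad2 (-0.04 ± 0.10, adjusted p = 0.782), Smad3 (-0.11 ± 0.12, adjusted p = 0.527) and Smad4 (-0.16 ± 0.081, adjusted p = 0.142) did not pass. Genes of this list that rose numbered 12, 9, 9, 9, 16 and 6 without each library in turn. Of 30 Wnt and Notch genes 6 rose and 2 fell, against 14.4% and 10.1% of all tested genes. Secreted Wnt antagonists were 4 of the 6: Sfrp1 (21.5, 22.6 and 21.2 to 123, 63.8 and 119.9 CPM, 2.23 ± 0.45, adjusted p = 0.00192), Sfrp2, Frzb and Dkk2. The ligands tested, Wnt4, Wnt5a, Wnt5b, Wnt9b and Wnt11, did not pass. Wnt and Notch genes that rose numbered 3, 6, 3, 5, 7 and 1 and those that fell 2, 1, 1, 1, 5 and 1 without each library in turn. Tgfb2 and Inhba did not pass without TAC replicate 3 (adjusted p = 0.0521 to 0.092). Sfrp2 did not pass without sham 1, sham 2, sham 3, TAC 1 or TAC 3, Frzb and Dkk2 without sham 1, sham 3 or TAC 3 (largest adjusted p = 0.117 to 0.181). Inhba had a log2 fold change of 1.87 without TAC replicate 3 (2.61 by the counts of all libraries) and Dkk2 4.29 without sham replicate 2 and 2.46 without TAC replicate 3 (3.06 by the counts of all libraries).

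Among growth factors 9 of 39 rose and 3 fell, against 14.4% and 10.1% of all tested genes. Igf1 rose from 28.1, 42 and 41 to 107, 70.4 and 139 CPM (1.51 ± 0.36, adjusted p = 0.00492) and Hgf from 1.76, 1.14 and 2.09 to 4.68, 3.06 and 7.11 CPM (1.58 ± 0.41). Igfbp2, which binds insulin-like growth factors, had 0 reads in every sham library and 0.881, 1.04 and 4.17 CPM in the TAC libraries (adjusted p = 0.00938). Against the level that 3 reads in the sham group would give, 0.083 CPM, Igfbp2 was at least 24.5-fold higher with TAC replicate 3 and at least 11.6-fold higher without it. Nrg4, a neuregulin, fell from 2.9, 1.79 and 4.82 to 1.22, 1.25 and 1.02 CPM (-1.45 ± 0.33, adjusted p = 0.00433), and Nrg1 stood at 3.08, 3.74 and 2.65 CPM in the sham and 3.25, 2.64 and 3.53 CPM in the TAC libraries, so that its groups overlapped. Growth factors that rose numbered 5, 5, 6, 9, 10 and 3 and those that fell 3, 2, 2, 2, 3 and 1 without each library in turn. Hgf and Igfbp2 did not pass without TAC replicate 3 (adjusted p = 0.0632 to 0.0752).

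Of 14 markers of activated fibroblasts 13 rose, and their summed level was 284 to 296 CPM in sham and 1705 to 3708 CPM in TAC libraries. Meox1, a transcription factor of activated fibroblasts, stood at 13.9, 14.3 and 13.5 CPM in the sham and 77.3, 46.5 and 111 CPM in the TAC libraries (2.50 ± 0.40, adjusted p = 0.000423). Of 14 markers of resident fibroblasts 5 rose and 2 fell, with summed levels of 1839 to 2073 and 1953 to 2213 CPM. Pdgfra (0.20 ± 0.16, adjusted p = 0.366) and Tcf21 (0.56 ± 0.23, adjusted p = 0.0825) did not pass, Pi16 rose (27.9, 26.8 and 29.1 to 53.2, 60.5 and 49.5 CPM, 0.96 ± 0.25) and Gsn fell (-0.90 ± 0.16). Of 37 transcription factors of the heart and of mesenchymal cells 8 rose and 3 fell, against 14.4% and 10.1% of all tested genes. Runx1 (11.4, 10.5 and 11.2 to 69.2, 32.9 and 69.7 CPM, 2.38 ± 0.48, adjusted p = 0.00182), Sox9 (5.36, 6.01 and 3.45 to 35.1, 18.1 and 32.5 CPM, 2.53 ± 0.44) and the tendon factor Scx (1.34 ± 0.37) rose, Gata6 (-0.32 ± 0.11), Meis1 (-0.31 ± 0.11) and Sox4 (-0.50 ± 0.15) fell, and Gata4 (0.08 ± 0.12, adjusted p = 0.683) and Nkx2-5 (-0.30 ± 0.12, adjusted p = 0.079), known from heart muscle, did not pass. Those that rose numbered 6, 6, 5, 5, 12 and 3 without each library in turn. Scx did not pass without TAC replicate 3 (adjusted p = 0.0834). Gata6 did not pass without sham 1, sham 2, TAC 1, TAC 2 or TAC 3, Meis1 without sham 1, sham 2, sham 3, TAC 2 or TAC 3, Sox4 without sham 1, sham 2, TAC 2 or TAC 3 (largest adjusted p = 0.0999 to 0.21).

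Cytoskeletal genes of non-muscle cells and of growing cells rose: 33 of 39 rose and 0 fell, with a median of 0.97. Vim, vimentin, rose from 207, 225 and 169 to 613, 385 and 739 CPM (1.53 ± 0.26, adjusted p = 0.000589), Tubb6, a beta-tubulin, from 17.9, 16.1 and 14.4 to 34, 36 and 63.6 CPM (1.47 ± 0.31), and Tubb3, a tubulin best known from neurons, from 0.264, 0.325 and 0.402 to 5.02, 2.23 and 7.97 CPM (3.91 ± 0.80). Cnn1 (2.2, 1.3 and 0.964 to 10.2, 4.38 and 17.7 CPM, 2.87 ± 0.62) and Actg2 (3.64 ± 0.87), which smooth muscle and myofibroblasts share, rose as well. Of 16 markers of pericytes and smooth muscle 5 rose and 2 fell, and Rgs5 (-0.29 ± 0.13, adjusted p = 0.0988) and Pdgfrb (0.01 ± 0.10, adjusted p = 0.948) did not pass. Of 35 integrins and adhesion genes 16 rose, among them Itga11, a collagen receptor of fibroblasts (4.92, 5.2 and 5.3 to 20.1, 9.18 and 15.8 CPM, 1.54 ± 0.52). Without each library in turn 26 to 34 cytoskeletal genes rose. Ptbp1, a splicing factor which is low in mature muscle, rose from 58.9, 61.8 and 60.9 to 85.9, 73.7 and 119 CPM (0.62 ± 0.15, adjusted p = 0.00643), and Rbfox1 and Rbm20 (-0.44 ± 0.14), which shape titin and other muscle transcripts, fell. Of 19 splicing and RNA-binding factors 2 rose and 2 fell, near the 14.4% and 10.1% of all tested genes, and without each library in turn 1, 1, 1, 2, 3 and 0 rose and 1, 2, 2, 2, 2 and 0 fell. Ptbp1 did not pass without TAC replicate 3 (adjusted p = 0.076). Itga11 did not pass without sham 1, sham 2, sham 3, TAC 1 or TAC 3, Rbm20 without sham 1 or TAC 3 (largest adjusted p = 0.118 to 0.147). Actg2 had a log2 fold change of 4.24 without sham replicate 1 and 2.996 without TAC replicate 3 (3.64 by the counts of all libraries).

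Macrophage genes rose. All 12 general macrophage markers rose, with summed levels of 191 to 240 CPM in sham and 466 to 673 CPM in TAC libraries. Cd68, a lysosomal protein of macrophages, stood at 11.1, 12.2 and 11 CPM in the sham and 55.2, 29.4 and 34.1 CPM in the TAC libraries (1.79 ± 0.26, adjusted p = 0.000228), and Mpeg1, a pore-forming protein, at 12.4, 21.4 and 14.1 CPM in the sham and 125, 48.1 and 67 CPM in the TAC libraries (2.32 ± 0.44, adjusted p = 0.00132). Of the markers of monocytes and recruited macrophages 7 of 10 rose, among them the chemokine receptor Ccr2 (1.32, 3.49 and 3.94 to 28.4, 15.1 and 24.8 CPM, 2.95 ± 0.63, adjusted p = 0.00269) and Trem2, a lipid receptor (0.791, 0.812 and 0.803 to 9.15, 3.76 and 5.51 CPM, 2.92 ± 0.50). The 7 include Fn1 and Spp1, which are also members of the matricellular list. The other 3 did not pass, among them Chil3 (2.41, adjusted p = 0.144), and the lowest value of the list was -0.27. Of the 12 markers of resident macrophages 6 rose and 0 fell, with values from 0.02 to 1.51. Mrc1 rose from 54.1, 58.3 and 60.7 to 119, 104 and 107 CPM (0.93 ± 0.17, adjusted p = 0.000853), but Lyve1 (0.09 ± 0.20, adjusted p = 0.774), Timd4 (0.12 ± 0.45, adjusted p = 0.877), Folr2 (0.23 ± 0.23, adjusted p = 0.504) and Cd163 (0.02 ± 0.22, adjusted p = 0.956), which mark the resident population, did not pass. Lyve1 stood at 18.4, 18.7 and 20.4 CPM in the sham and 16.7, 15.9 and 28.3 CPM in the TAC libraries, so that the groups overlapped.

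Genes of lysosomes and phagocytosis, which macrophages use to digest what they take up, rose too. In which cells they were read cannot be told from whole tissue. Of 47 genes of lysosomes and phagocytosis 34 rose and 1 fell. Ctss, a cathepsin of antigen-presenting cells, rose from 13.1, 19.4 and 15 to 78.8, 49.5 and 67.4 CPM (2.04 ± 0.35, adjusted p = 0.000665), Lgals3, galectin-3, from 1.41, 1.87 and 1.53 to 17.7, 9.04 and 10.8 CPM (2.96 ± 0.54, adjusted p = 0.000992) and Gpnmb from 0.791, 1.54 and 1.04 to 12.7, 4.1 and 2.25 CPM (2.47 ± 0.63). TAC replicate 1 was the highest library in 20 of the 34 and replicate 3 in 14. Of the other cathepsins Ctsb (0.61 ± 0.12), Ctsz (1.15 ± 0.21), Ctsa and Ctsh rose, and Ctsd (0.12 ± 0.10, adjusted p = 0.436) and Ctsl (-0.04 ± 0.10, adjusted p = 0.804) did not pass. The 1 gene of the list that fell was also a cathepsin, not reported here by name (-0.62, adjusted p = 0.016). Without TAC replicate 3 the number of list genes that fell was 0. Markers of other white cells were low. The summed level of neutrophil markers was 9.75 to 11.3 CPM in sham and 13.8 to 13.96 CPM in TAC libraries with 0 of 5 tested members past the test, and of the 18 markers of T and NK cells 2 were abundant enough to be tested and neither passed. Gpnmb did not pass without TAC 1, Ctsa without sham 2, Ctsh without sham 3, TAC 1 or TAC 3 (largest adjusted p = 0.0631 to 0.145). Gpnmb had a log2 fold change of 1.47 without TAC replicate 1 and 1.87 in the authors' RPKM table (2.47 by the counts of all libraries).

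Of 37 chemokines and cytokines 19 rose and 1 fell. Il1rn, which blocks interleukin-1, rose from 0.264, 0.406 and 0.161 to 1.49, 1.74 and 1.87 CPM (2.58 ± 0.72, adjusted p = 0.0137), while Il1b (0.78 ± 0.88, adjusted p = 0.548) and Tnf (0.37 ± 0.56, adjusted p = 0.664) did not pass. Il33, an alarmin of fibroblasts, rose from 2.02, 5.69 and 3.94 to 15.8, 7.79 and 28 CPM (2.15 ± 0.58), Ccl12, a monocyte attractant, from 0.0879, 1.3 and 1.28 to 3.12, 4.87 and 6.26 CPM (2.39 ± 0.53), and Ccl2 had 1.53 ± 0.57, adjusted p = 0.0543. The member that fell was Ccl11, eotaxin, from 7.65, 4.22 and 6.83 to 2.64, 2.02 and 1.34 CPM (-1.65 ± 0.48, adjusted p = 0.0161). In the interleukin-6 family 8 of 18 rose and 2 fell. Il6 had 0 reads in the sham libraries and 0.474, 0.139 and 1.39 CPM in the TAC libraries (adjusted p = 0.0269), at least 8.05-fold above the level of 3 reads with TAC replicate 3 and at least 3.7-fold without it. Socs3, the feedback inhibitor that Stat3 induces, rose from 2.9, 3.41 and 2.01 to 8.06, 8.62 and 19.7 CPM (2.14 ± 0.50, adjusted p = 0.00448), the oncostatin receptor Osmr from 49.9, 53.5 and 46.7 to 109.5, 78.8 and 117 CPM (1.02 ± 0.26), and the receptor Lifr (-0.35 ± 0.11) and the ligand Ctf1, cardiotrophin (3.96, 3.25 and 4.09 to 1.63, 2.71 and 1.87 CPM, -0.87 ± 0.22, adjusted p = 0.00831), fell. Chemokines and cytokines that rose numbered 11, 17, 15, 18, 18 and 9 without each library in turn. Interleukin-6 family genes did so in 6, 5, 6, 6, 9 and 4. Ctf1 did not pass without TAC replicate 3 (adjusted p = 0.0521). Il1rn did not pass without sham 3 or TAC 3, Il33 and Ccl11 without sham 1 or TAC 3, Il6 without sham 1, sham 2, sham 3 or TAC 3, Lifr without sham 2, sham 3 or TAC 3 (largest adjusted p = 0.0612 to 0.156). Il1rn had a log2 fold change of 1.85 in the authors' RPKM table (2.58 by the counts of all libraries).

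The interferon response rose in part. Of 48 genes 25 rose and 0 fell, with a median of 0.54. Mx1, an antiviral GTPase, stood at 0.967, 1.46 and 1.77 CPM in the sham and 11.7, 9.46 and 6.04 CPM in the TAC libraries (2.68 ± 0.45, adjusted p = 0.000565), Oas3, which senses double-stranded RNA, at 0.352, 0.975 and 1.85 CPM in the sham and 5.56, 7.02 and 5.08 CPM in the TAC libraries (2.45 ± 0.45, adjusted p = 0.00104), and Isg15, a ubiquitin-like protein, at 3.6, 7.8 and 6.26 CPM in the sham and 12.4, 20.03 and 15.6 CPM in the TAC libraries (1.44 ± 0.29, adjusted p = 0.00181). Iigp1, an inducible GTPase, stood at 92.5, 198 and 95.1 CPM in the sham and 90.2, 168 and 65.9 CPM in the TAC libraries (-0.25 ± 0.33, adjusted p = 0.612), and Irf1 had -0.29 ± 0.14, adjusted p = 0.126. Of 21 genes of antigen presentation 2 rose and 0 fell, fewer than the 14.4% and 10.1% of all tested genes. H2-Aa, of class II, stood at 25.8, 47 and 25.4 CPM in the sham and 30.8, 28.4 and 32.7 CPM in the TAC libraries (-0.10 ± 0.26, adjusted p = 0.817), and Cd74 had 0.01 ± 0.24, adjusted p = 0.98. The 2 that rose were the costimulators Cd80 and Cd86 (0.88 ± 0.26). Without each library in turn 18 to 24 interferon genes rose. Cd80 did not pass without sham 2 or sham 3, Cd86 without sham 2, sham 3 or TAC 3 (largest adjusted p = 0.0811 to 0.106). Oas3 had a log2 fold change of 3.11 without sham replicate 3 (2.45 by the counts of all libraries) and Cd80 3.77 without sham replicate 1 (2.11 by the counts of all libraries).

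In the interferon genes another library was highest. TAC replicate 2 was the highest library in 21 of the 25 interferon genes that rose, against 0 of 40 in mitosis and 0 of 28 in the matricellular list. Replicate 2 was also the highest among sham libraries: the summed level of the list was 1056, 1622 and 1335 CPM in sham and 1486, 2208 and 1579 CPM in TAC libraries. What this shared rank comes from was not tested, and same-numbered libraries of the 2 groups did not deviate together over all genes.

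Promoters of this list held the interferon-stimulated response element. Of 49 listed genes 36 were found in the RefSeq table, with 44 promoters. The letters GAAA and GAAA with 2 bases between, on either strand, stood in 18 of 44 (40.9%) and in 2.98% of all promoters, and in 8 of the 22 promoters of members that rose. Oas3 (chr5:120777660-120777909, minus strand) and Oas1a (chr5:120907526-120907775, minus strand, 1.56 ± 0.30, adjusted p = 0.00135) had the largest rises among members that held it, and the match is in capitals.
Oas3: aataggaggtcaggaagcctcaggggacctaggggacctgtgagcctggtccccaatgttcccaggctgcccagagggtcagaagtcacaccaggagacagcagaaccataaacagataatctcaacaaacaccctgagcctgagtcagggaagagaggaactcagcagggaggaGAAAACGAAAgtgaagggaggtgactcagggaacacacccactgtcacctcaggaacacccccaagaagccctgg
Oas1a: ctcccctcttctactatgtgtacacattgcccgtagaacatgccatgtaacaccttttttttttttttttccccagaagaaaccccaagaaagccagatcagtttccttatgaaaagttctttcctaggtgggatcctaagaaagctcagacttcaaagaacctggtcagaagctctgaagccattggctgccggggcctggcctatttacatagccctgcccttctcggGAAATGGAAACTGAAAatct
In Oas1a 2 matches share the middle GAAA and began 20 and 14 bases before the start, and in Oas3 the match began 75 bases before it.

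**Figure D4:**
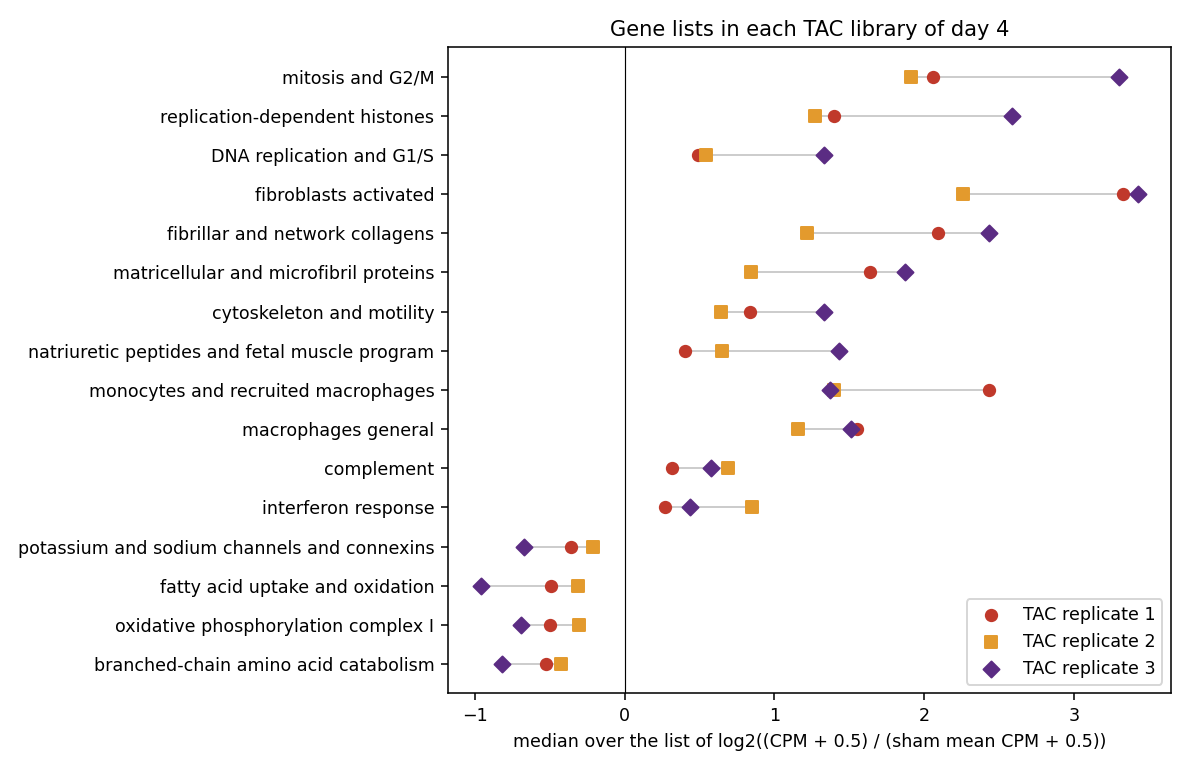
Median over each gene list of log2 of the level in a TAC library over the sham mean, with 0.5 CPM added to both (x axis), for 16 lists (rows) and the 3 TAC libraries of day 4 (symbols). TAC replicate 3 is the farthest from 0 in mitosis (3.30 against 2.06 and 1.91) and in fatty acid oxidation (-0.96), replicate 1 in recruited macrophages (2.43) and replicate 2 in the interferon response (0.85 against 0.27 and 0.44).

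The order of the 3 TAC libraries varied between gene groups. TAC replicate 3 was the most changed library in 68.7% of the genes that rose and 77.8% of those that fell, and replicate 2 the least changed in 75.6% and 67.6%. In mitosis replicates 1 and 2 were alike, with medians of 2.06 and 1.91 over sham, and replicate 3 was higher, at 3.30. In the markers of activated fibroblasts replicates 1 and 3 were alike, at 3.33 and 3.43, and replicate 2 was lower, at 2.26. With 3 libraries these orders are a description.

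Of 22 endothelial markers 0 rose and 7 fell, with a median of -0.20. Pecam1, present in all endothelium, stood at 172, 160.5 and 179.5 CPM in the sham and 164, 167 and 202 CPM in the TAC libraries (0.06 ± 0.082, adjusted p = 0.628). Those that fell were Car4, a carbonic anhydrase (13.5, 15.9 and 16.1 to 8.95, 7.65 and 5.83 CPM, -1.03 ± 0.29, adjusted p = 0.0127), Aqp1, a water channel (100.3, 111 and 97 to 48.6, 70.3 and 63 CPM, -0.76 ± 0.17, adjusted p = 0.00389), Rgcc, Egfl7, Mmrn2, Tie1 (-0.34 ± 0.10) and Tek. Endothelial markers that fell numbered 4, 4, 3, 5, 8 and 1 without each library in turn. Of 30 vascular growth factors and receptors 3 rose and 3 fell, fewer than the 14.4% of all tested genes that rose and near the 10.1% that fell. Figf, which encodes VEGF-D, rose from 4.48, 2.84 and 4.58 to 8.13, 7.37 and 9.14 CPM (1.05 ± 0.27, adjusted p = 0.00771), Epas1, a hypoxia-inducible factor, fell (-0.44 ± 0.14), and Vegfa stood at 479, 437 and 416 CPM in the sham and 349.6, 449 and 384 CPM in the TAC libraries (-0.17 ± 0.12, adjusted p = 0.293). Vascular genes that rose numbered 3, 2, 2, 1, 4 and 1 and those that fell 1, 3, 1, 3, 7 and 0 without each library in turn. Car4 and Tek did not pass without TAC replicate 3 (adjusted p = 0.0665 to 0.0856). Rgcc did not pass without sham 1, sham 2, sham 3, TAC 2 or TAC 3, Egfl7 and Mmrn2 without sham 1, sham 2, sham 3, TAC 1 or TAC 3, Tie1 without sham 1, sham 3 or TAC 3, Epas1 without sham 1, sham 3, TAC 1 or TAC 3 (largest adjusted p = 0.0964 to 0.195).

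Antioxidant genes moved both ways, with 8 of 33 higher, 9 lower and a median of -0.01. Hmox1, heme oxygenase, rose from 4.75, 5.61 and 5.3 to 20.1, 13.1 and 20.4 CPM (1.77 ± 0.55, adjusted p = 0.0225), Mt2, a metallothionein, from 3.6, 5.28 and 5.3 to 17.2, 9.88 and 18.2 CPM (1.67 ± 0.25, adjusted p = 0.00029) and Gpx3, a secreted glutathione peroxidase, from 237, 230.0 and 249.7 to 732, 432 and 592 CPM (1.29 ± 0.27). Of the glutathione transferases Gstm1 fell from 257, 244 and 299 to 160.1, 178 and 106 CPM (-0.85 ± 0.21, adjusted p = 0.00634), Gstm2, Gstm5, Gstp1 and Gsta4 fell as well, and Gsta3 had -1.11 ± 0.42, adjusted p = 0.056. Prdx3 and Prdx5, peroxidases of the mitochondrion, fell. Antioxidant genes that rose numbered 7, 7, 7, 7, 8 and 5 and those that fell 7, 5, 6, 6, 11 and 4 without each library in turn. Among immediate early genes, where 12 of 34 rose and 3 fell, Egr2 (0.527, 0.569 and 1.04 to 10.9, 3.62 and 8.02 CPM, 3.37 ± 0.67, adjusted p = 0.00172), Fosl1 and Myc (1.28 ± 0.35) rose, while Fos (0.46 ± 0.51, adjusted p = 0.533) and Egr1 (-0.21 ± 0.30, adjusted p = 0.634), which react within minutes, did not pass and Dusp1, a phosphatase of MAP kinases, fell (68.8, 65.6 and 63.4 to 37.4, 39.6 and 30.3 CPM, -0.88 ± 0.22). Immediate early genes that rose numbered 8, 8, 7, 8, 12 and 4 and those that fell 1, 2, 2, 2, 4 and 1 without each library in turn. Gstm1 and Myc did not pass without TAC replicate 3 (adjusted p = 0.0521 to 0.0839). Hmox1 and Prdx5 did not pass without sham 1, sham 2, sham 3, TAC 1 or TAC 3, Gstm5 without sham 1, sham 2 or TAC 3, Gsta4 without sham 2, sham 3, TAC 1 or TAC 3, Fosl1 without sham 1, sham 3, TAC 1 or TAC 3 (largest adjusted p = 0.0829 to 0.241). Egr2 had a log2 fold change of 2.65 in the authors' RPKM table (3.37 by the counts of all libraries) and Fosl1 7.35 without sham replicate 2 (3.62 by the counts of all libraries).

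Day 4 was set against the other days through the difference of the TAC effects, each with its own 3 sham libraries. TAC against sham called 4.58% of genes at day 2, 23.2% at day 7 and 1.09% at day 21. Of the 633 genes called at day 2, 469 (74.1%) were called at day 4, 13.8% of the day 4 calls. Of the 3201 genes of day 7, 1810 (56.5%) were called at day 4, 53.3% of the day 4 calls, and 5 of them in the opposite direction. For 1386 genes the call was made at day 4 alone, but for 0 of these did day 4 differ from the mean of the other days past the test. The effect at day 4 minus that at day 2 passed for 0 genes with edgeR (1215 at an unadjusted p under 0.05, 16 with DESeq2 and 0 with voom). Day 4 minus the mean of days 2, 7 and 21 passed for 0 genes with edgeR (1105 at an unadjusted p under 0.05, 6 with DESeq2 and 0 with voom). The smallest p of that comparison belonged to Dock8, a regulator of immune cell movement, which rose at day 4 (26.1, 29.6 and 30.6 to 52.9, 46.2 and 42.9 CPM, 0.72 ± 0.13, adjusted p = 0.00104) and had -0.05, -0.10 and -0.01 at days 2, 7 and 21 (adjusted p = 0.415 for the difference). Mastl, a kinase of mitotic entry, rose at day 4 (0.527, 0.731 and 0.642 to 5.15, 3.69 and 8.23 CPM, 3.15 ± 0.42, adjusted p = 0.00017) and had 1.29, 2.47 and -0.72 at days 2, 7 and 21. Mx1, an interferon-induced GTPase, had 2.68 at day 4 and -0.50, 1.09 and 0.89 at those days, and Rgs3, a brake on G proteins, had -0.25 at day 4 and 0.04, 0.21 and 0.39. Rgs3 did not pass without sham 1, sham 3, TAC 1 or TAC 3 (largest adjusted p = 0.188). Mastl had a log2 fold change of 1.84 in the authors' RPKM table (3.15 by the counts of all libraries).

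Against day 7 the effect of TAC differed past the test in 7 genes, 0.0507% of those tested. In 6 of the 7 the effect was lower at day 4. Among them Ets1, a transcription factor of endothelium and lymphocytes, stood at 95.8, 88.8 and 98.2 CPM in the sham and 92.4, 94.2 and 97.5 CPM in the TAC libraries at day 4 (0.01 ± 0.071), against a rise of 0.70 ± 0.072 at day 7, a difference of -0.69 ± 0.10 (adjusted p = 0.0126). Bcl6b, an endothelial repressor, Pcdh12, an endothelial protocadherin, Plxnd1, a semaphorin receptor of vessels, Nav3 and 2900026A02Rik showed the same, with day 4 values of -0.28, -0.32, 0.00, 0.03 and -0.14 that did not pass and day 7 values of 0.92, 0.70, 0.71, 0.86 and 0.48 that did. Lcn2, a lipocalin of inflamed tissue, was the exception: it rose at day 4, from 1.67, 2.19 and 3.45 to 18.2, 13.4 and 8.82 CPM (2.45 ± 0.36, adjusted p = 0.000232), and had -0.41 ± 0.35 at day 7. Without each library of day 4 in turn 0 to 9 genes passed. Ets1 passed in 4 of these 6 fits, Nav3 in 0 and the other 5 genes, Lcn2 among them, in 1 each. For Lcn2 that was the fit without TAC replicate 3, and for the difference its adjusted p was otherwise 0.0594 to 0.153.

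The medians of the lists give the course around day 4. The median of mitosis was 2.20, 3.15, 3.06 and 0.97 at days 2, 4, 7 and 21, that of activated fibroblasts 0.95, 3.13, 2.32 and 1.98, and that of recruited macrophages 1.75, 2.44, 1.42 and 0.85. Day 4 held the highest median of these 3 lists. The reticulum chaperones had 0.48, 0.33, 0.01 and 0.07, the interferon response -0.24, 0.54, 0.50 and 0.39, and the endothelial markers -0.17, -0.20, 0.12 and 0.19. The chaperones were thus highest at day 2, and the interferon and endothelial lists had medians of opposite sign at days 2 and 7. Fatty acid oxidation had -0.32, -0.57, -0.66 and -0.34 and complex I -0.21, -0.50, -0.42 and -0.07. These medians are descriptions, since of the differences tested with edgeR only those of the 7 genes named above passed.

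**Figure D5:**
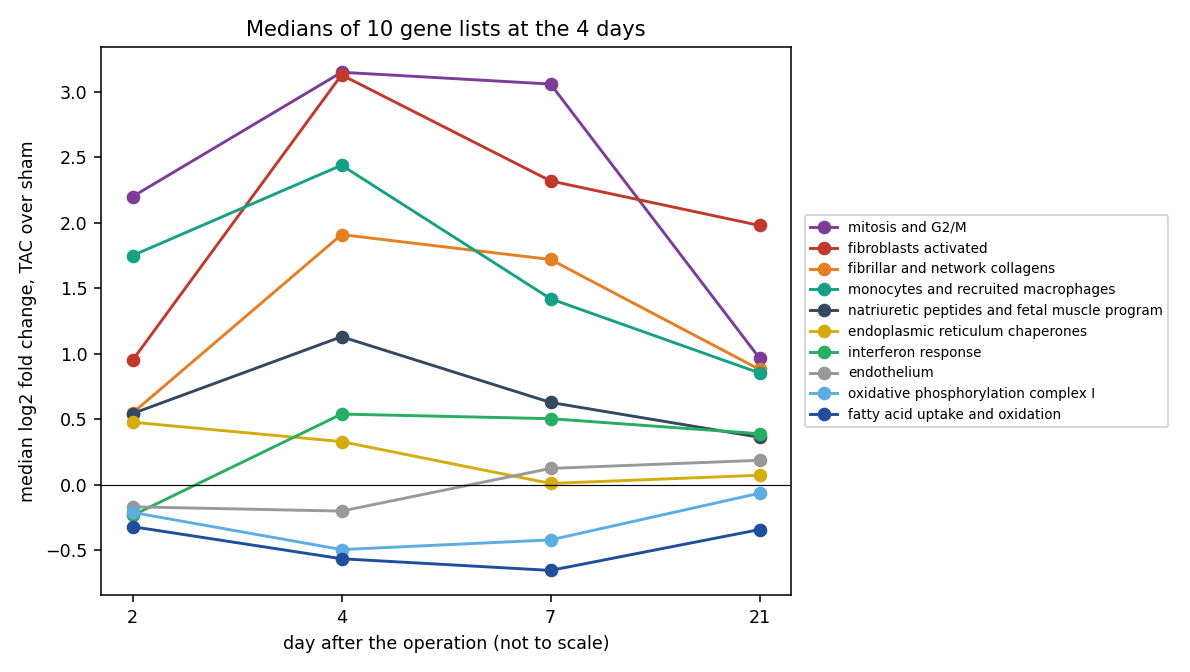
Median log2 fold change of TAC over sham (y axis) for 10 gene lists at days 2, 4, 7 and 21 (x axis, not to scale), each day with its own 3 sham and 3 TAC libraries. Activated fibroblasts reach 3.13 and recruited macrophages 2.44 at day 4, their highest medians, while complex I is at its lowest there, -0.50.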

How the data were processed

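RNA of mouse left ventricles was sequenced in 24 libraries, 3 for each operation and day, and the 6 of day 4 are the subject here. The authors deposited a table of read counts per gene, not normalized, and a table of RPKM values (reads per kilobase and 1000000 reads) of the same libraries. TopHat, DESeq and the build hg19 are named in the submitters' processing notes. The sources used here do not give the role of each, the mouse build, the annotation or the use of strand.

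Counts were tested with edgeR 4.0.16 in R 4.3.3 (TMM scaling, quasi-likelihood test, 8 groups, 24 libraries, 16 residual degrees of freedom), after its filter on low counts, and adjusted by Benjamini-Hochberg over 13816 genes. Fitting all groups together shares 1 estimate of spread. SE is the log2 fold change over the square root of F. The differences between days were contrasts of the same fit. RPKM values were tested with limma 3.58.1 on log2(RPKM + 0.1), among genes above 0.1 RPKM, and serve for levels between genes. Alternatives were other scaling and filters, DESeq2 1.42.0, voom, a replicate block, the 6 libraries alone, RPKM, and leaving out each library of day 4. The code was tested on simulated data.

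Genes were named by these rules: the 15 largest changes in each direction among genes past the test without overlap and with a mean log2 CPM of at least 3, the 10 with the most reads in each direction, up to 6 members of each list by p with the exceptions to its majority, the 10 smallest p in each direction of day 4 against the other days, and a short set of known genes. Not every gene so named is printed, and other list members, such as Bckdk or Wnt4, were printed after their values were seen. Members and lists were chosen with earlier results of these data known, so that no list is independent evidence. Promoters are from RefSeq, build GRCm38.p6. Levels of 3 reads, used as a floor, cover counting error only. Some list members are counted but not reported here by name.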

Additional observations from a re-analysis of the deposited data

Results flagged for a closer look

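In 7 genes the effect of TAC at day 4 differed from that at day 7 by edgeR's quasi-likelihood test of the difference itself, with Benjamini-Hochberg adjustment over all tested genes. Values are log2 effects at day 4 minus those at day 7 ± SE. The difference was -1.20 ± 0.20 for Bcl6b, -1.02 ± 0.18 for Pcdh12 and -0.70 ± 0.13 for Plxnd1. It was -0.69 ± 0.10 for Ets1, -0.83 ± 0.15 for Nav3 and -0.62 ± 0.11 for 2900026A02Rik, a gene model without a name. For Lcn2 it was 2.86 ± 0.50. Adjusted p was 0.0126 for Ets1, 0.0366 for Plxnd1 and 0.0352 for the other 5.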

How the results depend on the processing

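The 3394 calls of day 4 stayed within 1.5 times under RLE scaling, no filter, a filter of 5 CPM in 3 libraries, DESeq2, voom, the 6 libraries alone and the RPKM table, at 2969 to 3640. Without single libraries there were 1402 to 3910 calls, 1060 to 2243 of them higher and 342 to 1667 lower. The lowest of each came without TAC replicate 3, where 75.6% of the calls were higher. The cause was not tested.

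Day 4 minus day 2 passed for 16 genes with DESeq2, and day 4 minus the mean of the other days for 6, with 0 in the other fits of both. Day 4 minus day 7 passed for 7 genes, for 51 with DESeq2 and, without single libraries, for 0 to 9.

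With the replicate number as a block 3498 genes were called at day 4 and 1 gene for day 4 minus day 7. Same-numbered libraries did not deviate together over all genes (correlations of 0.00, -0.08 and -0.01). A measure over all genes cannot show a pairing that touches only part of them, so whether the numbers pair samples is not known.

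Without sham replicate 3 Scd1 turned to 0.79 and Car3 to 3.44. Over the single libraries left out their values ran from -4.18 to 0.79 and from -4.90 to 3.44, and no other named gene that passed changed sign under these alternatives. Without TAC replicate 3 120 of the 275 named genes that had passed did not.

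Of the 3394 genes called, 3389 were in the fit of the RPKM table, 3387 with the same direction and 2964 past the test.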
